A study of Drosophila melanogaster with 63 samples.

Results

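Embryos of Drosophila melanogaster that were mutant for fushi tarazu (ftz) were compared at 6 h and at 3 h after egg laying. The comparison took in the 6 arrays that the labels place in these groups, 3 at each age, out of 63 arrays in the series. The other arrays held ftz mutants at 2, 7, 8, 9 and 10 h, and wild type embryos and even skipped (eve) mutants at the same 7 ages. Both mutants were kept over balancer chromosomes carrying GFP, and embryos of the wanted stages were genotyped before use. The labels name no allele, and give no balancer for wild type. Each array set total RNA of whole embryos in Cy3 against a common reference in Cy5, which was RNA collected from 0 to 22 h of embryogenesis. Values are log2 ratios of sample over reference, a direction that is likely from the course of wild type stage markers but not stated, and a change is the mean of the 6 h arrays minus the mean of the 3 h arrays. The labels do not say whether arrays of a group came from separate collections of embryos, so a p-value here measures the spread between arrays, which may be technical.

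ftz encodes a homeodomain transcription factor of the pair-rule class, a set of genes expressed in stripes that divide the early embryo into segments. In its absence alternate segments fail to form. Over the interval studied the fly embryo completes gastrulation and germ band extension, switches from maternal to zygotic transcripts, sets up segment polarity, and begins to form neuroblasts and muscle precursors.

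The ftz transcript itself was still measured in the mutants. Its level was -0.22, 0.089 and 0.26 on the 3 h arrays and -0.16, -0.12 and -0.44 on the 6 h arrays, so the ages overlapped. The change of -0.28 (SE 0.15, n = 3 at each age) did not pass limma's moderated test (adjusted p = 0.172). In wild type ftz fell by 0.67 on the log2 scale (limma, adjusted p = 0.0032), but the difference between these steps did not pass the test. Without the allele, a transcript level does not check the genotype.

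The arrays matched their labelled order of ages. Over 12424 features each 3 h array correlated best with the wild type 3 h mean (r = 0.69 to 0.72), and the 6 h arrays correlated best with wild type means of 7 h or 8 h (r = 0.78 to 0.81, against 0.71 to 0.78 with 6 h). Of the markers of a cellularizing embryo, 4 of 5 were measured, and their mean level lay between -0.52 and -0.12 at 3 h and between -1.32 and -0.97 at 6 h. Of the markers of the extended germ band 2 of 7 were measured, with mean levels of -0.032 to 0.18 at 3 h and 0.41 to 0.64 at 6 h. Of the markers of late differentiation, not due by 6 h, 5 of 7 were measured, with mean levels of -1.89 to -1.40 at 3 h and -1.32 to -0.95 at 6 h in ftz mutants, which do not overlap, and of -1.68 to -1.46 at 6 h in wild type. Hemocyte markers (4 of 5 measured) lay between -0.52 and -0.36 at 3 h and between -0.51 and -0.28 at 6 h, and germ cell markers (3 of 5) between -0.76 and -0.49 and between -1.07 and -0.73. Slide numbers in the titles placed the 3 h arrays on slides 63, 64 and 68 and the 6 h arrays on slides 40, 45 and 11. In all 3 genotypes the 2 h and 3 h arrays carry another title series than the 6 to 10 h arrays, so title series and age cannot be told apart. Runs of slide numbers could be fitted as a term, since other groups connect them. Values from that fit are given beside many of the genes whose call they end.

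Between 3 h and 6 h, 3028 of 12424 features passed the test (limma, adjusted p under 0.05), which is 24.4%. Of these, 1532 were higher at 6 h (12.3% of features) and 1496 were lower (12% of features). The median size of the changes that passed was 0.58 on the log2 scale, 1490 of them reached 1.5-fold and 361 reached 2-fold. The median change of all features was -0.0083. The 3 arrays of one age lay wholly above those of the other for 5955 features (47.9%). The embryos were measured whole, so more cells of a type and more RNA per cell cannot be told apart. Leaving out each array in turn gave 2159 to 2747 features, and a term for slide runs gave 2235, of which 1905 were among the 3028.

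The largest rise among named genes was that of Cals, which encodes the cadherin family protein calsyntenin. Its level was -1.93, -2.30 and -2.11 at 3 h and 0.63, 0.42 and 0.80 at 6 h. The arrays of the 2 ages were far apart, and the change of 2.73 (SE 0.30, limma adjusted p = 6.36e-09) is a 6.62-fold rise. CG43333, a gene known by its annotation number, went from -0.97, -2.24 and -1.90 to 0.82, 0.62 and 1.20, a change of 2.58 (SE 0.31, limma adjusted p = 4.54e-08). Its 3 h arrays were spread over more than its 6 h arrays, and the ages did not overlap. For eIF4E3, a form of the protein that binds the cap of mRNAs, the 3 h arrays read 0.52, 1.11 and 0.83 and the 6 h arrays all read 2.78. That is the highest value an array can hold after the deposited normalization, so the change of 1.97 has a ceiling.

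Genes of several functions stood among the 12 largest rises. lmd, a zinc finger factor that specifies fusion-competent myoblasts, had levels near 0 at 3 h (-0.0053, -0.15 and 0.16) and of 2.06, 1.53 and 1.55 at 6 h, a change of 1.71 (SE 0.23, limma adjusted p = 4.63e-07). pAbp, the poly(A) binding protein, rose by 1.68, and Atf6, a transcription factor of the unfolded protein response, rose by 1.88. PRL-1, a protein tyrosine phosphatase, rose by 1.67. Oatp58Dc, an organic anion transporter, rose by 1.88, and cn, which encodes an enzyme of eye pigment synthesis, by 1.72. Both of these also rose in wild type, by 1.60 and 1.74. The remaining members were aqz (1.98), CG7763 (1.67) and CG18088 (1.66).

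The falls were led by genes without a described role and by a gene of detoxification. CG14915 had the largest fall, from -1.14, -0.72 and 1.91 to -2.86, -2.62 and -2.54, and its 3 h arrays differed more among themselves than those of any of the other 11 largest falls. Its change of -2.69 was -1.75 without the third 3 h array (adjusted p = 0.00545). That is smaller in size than the next falls from CG14427 (-2.33) down to tex (-1.77). GstE1, a glutathione S-transferase, was tighter. Its levels of 0.80, 0.92 and 1.05 at 3 h and -1.29, -1.12 and -1.38 at 6 h give a change of -2.19 (SE 0.23, limma adjusted p = 1.78e-09). The smallest adjusted p among the named falls was that of tex (6.27e-14, limma), with levels of 1.97, 1.59 and 2.24 at 3 h and 0.19, 0.30 and -0.0044 at 6 h and a change of -1.77 (SE 0.13).

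A pair of germline genes belonged to the 12 largest falls. spn-E, a helicase of the piRNA pathway, which silences transposons in germ cells, was at -0.29, -0.34 and -0.15 at 3 h and at -2.35, -2.38 and -1.52 at 6 h, a change of -1.83 (SE 0.30, limma adjusted p = 8.21e-06). shu, a cochaperone of the same pathway, changed by -1.72 (SE 0.33, limma adjusted p = 0.000129). The mean of the germ cell markers was -0.76 to -0.49 at 3 h and -1.07 to -0.73 at 6 h, which overlap, and their part in these changes was not tested. The other named falls were CG14427 (-2.33), CG12420 (-2.25), CG4390 (-1.93), CG10038 (-1.73), Nepl15 of the neprilysin-like peptidases (-1.72), the sphingomyelinase gene nSMase (-1.71) and the aminopeptidase gene ApepP (-1.69). All 24 genes kept their call when any 1 array was left out, with slide runs as a term and with the trend on gene span removed. CG14427 (-1.16), Nepl15 (-1.12) and shu (-1.07) were smaller by over 1.5 times with slide runs as a term.

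**Figure D1:**
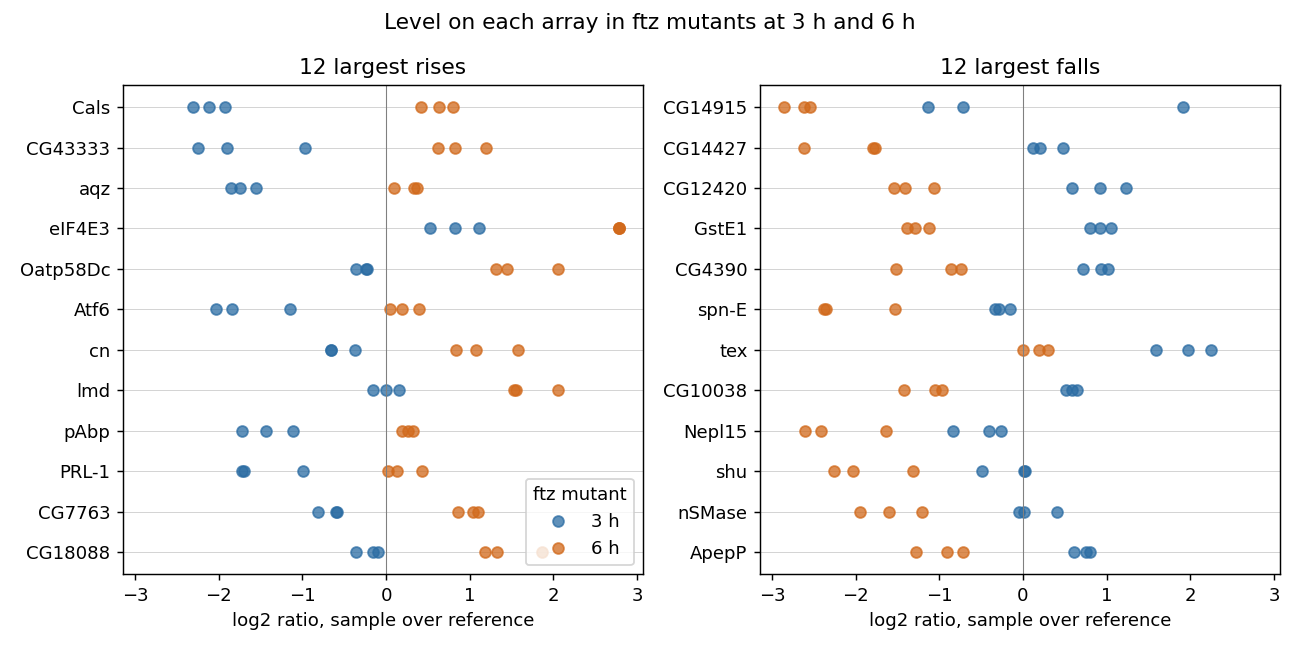
Level of the 12 largest rises and the 12 largest falls on each of the 6 ftz mutant arrays, in log2 of sample over reference. Blue points are the 3 h arrays and orange points the 6 h arrays, and the 2 ages do not overlap for any of the 24 genes, which the choice of these genes required.

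Transcripts of the cellularizing embryo that passed were lower at 6 h. The counts of this list and of those below are to be read beside the 12.3% of all features that rose and the 12% that fell. Of 6 measured genes of cellularization, which packs the nuclei of the early embryo into cells, 2 fell and none rose, with a median change of -0.38 (all features, -0.0083). halo, which sets the transport of lipid droplets at that stage, was at 0.042, 0.026 and 0.14 at 3 h and at -0.52, -0.83 and -1.15 at 6 h (change -0.90, SE 0.23, limma adjusted p = 0.00227). Sry-alpha, required for the actin network of cellularization, changed by -1.35, and its call was lost without the third 3 h array (-1.02, adjusted p = 0.0534) and with slide runs as a term (-0.75, adjusted p = 0.197). Of 6 early zygotic genes 2 fell (median -0.44). zen, a homeobox gene of the dorsal ectoderm, changed by -1.17, but by -0.43 with slide runs as a term (adjusted p = 0.35). The other was term, at -1.06, whose call was lost without the third 3 h array (-0.63, adjusted p = 0.256), the second 3 h array (-1.01, adjusted p = 0.0619), or the second (-0.98, adjusted p = 0.0734) or the third 6 h array (-0.97, adjusted p = 0.0808).

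Maternal transcripts moved both ways. Of 17 measured, 4 rose and 4 fell, beside 12.3% and 12% of all features, and the median was -0.18. bcd, the maternal factor that patterns the anterior, was at -1.64, -1.23 and -1.47 at 3 h and at -0.35, -0.50 and -0.28 at 6 h, a change of 1.07 (SE 0.27, limma adjusted p = 0.00213). smg, a repressor that helps to clear maternal mRNAs, changed by 1.07 from levels of -2.68, -2.60 and -3.06, and zld, an activator of the zygotic genome, by 0.57. For these 3 genes no 6 h array was as low as a 3 h array. gnu, a regulator of the early nuclear cycles, changed by 1.32, and by 0.999 without the first 3 h array (adjusted p = 0.105). Beside spn-E, the fallers were plu and png, partners of gnu, and aub of the piRNA pathway, whose calls did not hold when single arrays were left out (highest adjusted p of 0.0832, 0.146 and 0.0511).

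The segmentation genes are given by class. Of 10 measured segment polarity genes, which keep the borders and polarity of segments, 5 rose and none fell (median 0.35). en, the homeodomain factor of posterior compartments, was at -0.0015, -0.25 and -0.022 at 3 h and at 0.61, 0.80 and 0.42 at 6 h (change 0.70, SE 0.14, limma adjusted p = 0.000161). gsb-n, a Pax gene, was at -0.018, 0.024 and 0.054 at 3 h and at 1.21, 0.99 and 1.29 at 6 h (change 1.14, SE 0.18, limma adjusted p = 4.59e-06). For both genes the ages were clearly apart. ci, the transcription factor of the hedgehog pathway, changed by 1.16, and by 1.004 without the first 6 h array (adjusted p = 0.0687) and 0.98 with slide runs as a term (adjusted p = 0.0506). nkd, an inhibitor of Wnt signalling, and inv, the neighbour of en, changed by 0.37 and 0.33 and lost their calls under 4 and 6 of the 6 left-out arrays (highest adjusted p of 0.119 and 0.179), and with slide runs as a term inv was 0.38 (adjusted p = 0.0502). With the span trend removed they were 0.16 and 0.13, and neither passed. The 5 that did not pass were gsb (0.46), hh (0.13), mid (0.11), H15 (-0.11) and smo (-0.39).

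Of 9 measured pair-rule genes, 2 rose and 1 fell (median 0.16), beside 12.3% and 12% of all features. eve was not among them (-0.073, SE 0.16, limma adjusted p = 0.791). hry, a repressor of the primary pair-rule group, was at -0.67, -0.38 and -0.58 at 3 h and at 0.050, 0.17 and -0.075 at 6 h (change 0.59, SE 0.12, limma adjusted p = 0.000145). It has 2 rows on the array, and the more variable row alone gave 0.44 (adjusted p = 0.0516). sob changed by 0.61 (by 0.49 with slide runs as a term, adjusted p = 0.0624). prd, a Pax gene, changed by -0.44 and lost its call under 5 of 6 left-out arrays (highest adjusted p = 0.167) and with slide runs as a term (-0.29, adjusted p = 0.318). slp2 (0.43), Ten-m (0.32), ftz-f1 (0.16), odd (-0.11) and ftz did not pass.

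Of 8 gap and head gap genes, which act upstream of the pair-rule genes, 3 rose and none fell (median 0.26). ems, a homeobox gene of the head, had levels of 0.12, 0.14 and 0.12 at 3 h and 0.97, 0.87 and 0.58 at 6 h, a change of 0.68 (SE 0.20, limma adjusted p = 0.00761). With slide runs as a term it was 0.65 (adjusted p = 0.055). Kr (0.52) and oc (0.32) passed less firmly, with adjusted p up to 0.356 and 0.103 when an array was left out. Kr was 0.30 without the first 6 h array and 0.83 without the third, and oc was 0.30 with slide runs as a term (adjusted p = 0.085) and 0.17 with the span trend removed (adjusted p = 0.191). hb (0.34), hkb (0.21), btd (0.11), cnc (-0.015) and gt (-0.14) did not pass.

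Of 11 measured genes of dorsoventral patterning and of the amnioserosa, the extraembryonic tissue over the dorsal side, 4 rose and 2 fell (median 0.25). Ance, an angiotensin-converting enzyme homologue, was at -0.093, 0.12 and 0.032 at 3 h and at 1.37, 1.39 and 1.16 at 6 h (change 1.29, SE 0.19, limma adjusted p = 1.69e-06). peb, a zinc finger gene of the amnioserosa, rose by 0.68. The other risers, tup (0.41) and tld (0.39), lost their calls when single arrays were left out (highest adjusted p of 0.11 for each). tup was 0.33 with slide runs as a term (adjusted p = 0.195) and 0.26 with the span trend removed (adjusted p = 0.152). The TNF homologue egr fell by 0.89 on the log2 scale. ind, a homeobox gene of the neuroectoderm, had levels of 0.92, 0.75 and 0.97 at 3 h and 0.32, 0.28 and 0.32 at 6 h, a change of -0.58 (SE 0.13, limma adjusted p = 0.000486). The 2 ages of ind lay wholly apart, with little spread at 6 h. Of 7 genes of gastrulation 3 rose, among them the Toll family receptors 18w (0.97) and Tollo (0.68), which guide cell intercalation in the germ band. The other was fog (0.34), which lost its call when single arrays were left out (highest adjusted p = 0.0719). With slide runs as a term fog was 0.27 (adjusted p = 0.156), and with the span trend removed 0.15 (adjusted p = 0.33).

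Of 8 measured genes of the early mesoderm and heart 5 rose and 1 fell (median 0.37). The faller was twi, the factor that specifies mesoderm, at 0.37, 0.40 and 0.40 at 3 h and -0.40, -0.27 and -0.15 at 6 h (change -0.66, SE 0.16, limma adjusted p = 0.0013). Besides lmd, the risers were Him (0.62), bap (0.47), eya (0.38) and htl (0.37), each of which lost its call without 1 or more arrays (highest adjusted p of 0.091, 0.082, 0.0856 and 0.161). bap was 0.31 without the first 6 h array. Him (0.47, adjusted p = 0.101), bap (0.40, adjusted p = 0.0506) and eya (0.31, adjusted p = 0.197) lost their call once slide runs were a term, while htl was 0.57, and with the span trend removed eya was 0.23 (adjusted p = 0.197). Of 10 structural muscle genes 2 passed, against 24.4% of all features. They were up (0.74), which encodes troponin T and did not pass with each row on its own (0.52, adjusted p = 0.0875), and Mlc2. The 3 h arrays of Mlc2 stood at or near the lowest value an array can hold (-3.73, -3.50 and -3.73), against -1.99, -3.23 and -2.75 at 6 h. Its change of 1.001 was 0.67 without the first 6 h array (adjusted p = 0.177) and 0.96 without the first or the third 3 h array (adjusted p = 0.0559 and 0.0563), and 0.54 with slide runs as a term (adjusted p = 0.36).

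Genes of the nervous system that passed were all higher at 6 h. Of 10 measured neuroblast genes 5 rose (median 0.55). insc, an adaptor that orients the neuroblast division, was at -0.091, 0.13 and -0.060 at 3 h and at 0.86, 0.81 and 1.26 at 6 h (change 0.98, SE 0.15, limma adjusted p = 2.5e-06). mira and brat, which pass to the smaller daughter cell in that division, rose by 0.89 and 0.99. Of 10 neuronal genes 7 rose (median 0.53). elav, an RNA binding protein of neurons, was at -0.15, -0.37 and -0.29 at 3 h and at 0.66, 0.60 and 1.29 at 6 h (change 1.12, SE 0.29, limma adjusted p = 0.00303). Every 6 h array of insc and elav was above every 3 h array. The adhesion proteins Fas1 (1.11) and Nrg (0.93) and the midline repellent sli (0.80) rose as well. Of 3 glial genes 1 rose, beside 12.3% of all features. It was moody (0.43), at 0.24 with slide runs as a term (adjusted p = 0.164) and 0.31 without the third 6 h array (adjusted p = 0.0755).

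Notch signalling selects neuroblasts from the neuroectoderm, and 8 of 10 measured genes of its ligand and targets rose with none lower (median 0.69). The ligand Delta was at -0.17, -0.20 and -0.069 at 3 h and at 0.74, 0.78 and 0.45 at 6 h (change 0.80, SE 0.14, limma adjusted p = 2.79e-05). Among the targets, the repressor gene E(spl)m3-HLH was at -0.51, -0.37 and -0.41 and then at 0.76, 0.77 and 0.99 (change 1.27, SE 0.17, limma adjusted p = 2.62e-07). E(spl)m4-BFM of the Bearded family changed by 1.06 and the repressor gene E(spl)m5-HLH by 0.98. In all 4 genes the ages did not overlap. The median over this list was 0.52 in wild type and 0.68 in eve mutants.

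Of 6 genes of the EGF receptor pathway 4 rose (median 0.67), and they span the receptor, its nuclear repressor and its inhibitors. The receptor Egfr was at 0.015, -0.20 and -0.14 at 3 h and at 0.53, 0.51 and 0.92 at 6 h (change 0.76, SE 0.19, limma adjusted p = 0.00238). aop, the ETS repressor that the pathway switches off, changed by 1.16. The inhibitors kek1, a membrane protein, and aos, a secreted one, changed by 0.74 and 0.61. Of 4 genes of FGF signalling 3 rose, btl (0.48), bnl (0.44, but 0.23 with the span trend removed, adjusted p = 0.136) and htl, and of 3 genes of JAK/STAT signalling Stat92E passed (0.77, but 0.62 without the third 3 h array, adjusted p = 0.0788).

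Among genes of later organs 1 to 3 of each list rose, beside the 12.3% of all features that did. Of 9 tracheal genes 3 rose, of 9 hemocyte genes 3, of 7 genes of endoderm and gut 2, and of 4 salivary gland genes 1. Among these, tracheal vvl (0.39) and hemocyte Sr-CI (0.53) and Ppn (0.47) lost their calls when single arrays were left out (highest adjusted p of 0.107, 0.0934 and 0.247). With slide runs as a term they were 0.35, 0.57 and 0.14 (adjusted p of 0.0538, 0.0512 and 0.69). srp (0.61), of the hemocyte and gut lists, did not pass with each row on its own (0.43, adjusted p = 0.0971). The forkhead factor fkh, which belongs to gut and salivary gland, was at -0.17, -0.48 and -0.27 at 3 h and at 0.56, 1.02 and 0.46 at 6 h (change 0.99, SE 0.21, limma adjusted p = 0.000398). Its ages did not overlap. Of 8 genes of myoblast fusion 3 rose and 1 fell, and none of these calls held throughout. hbs (0.74) was 0.40 with slide runs as a term (adjusted p = 0.0956). nau (0.46), blow (0.39) and the faller rols (-0.53) lost their calls when single arrays were left out (highest adjusted p of 0.0637, 0.132 and 0.123). With slide runs as a term nau was 0.46 (adjusted p = 0.0566) and rols -0.52 (adjusted p = 0.167). Neither of 2 measured Hox and cofactor genes passed.

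DNA replication genes that passed were lower at 6 h. Of 10 measured, 5 fell and none rose (median -0.40, against 0.010 in wild type). Mcm5, a subunit of the replicative helicase, was at 1.47, 0.998 and 1.11 at 3 h and at 0.47, 0.24 and -0.24 at 6 h (change -1.04, SE 0.19, limma adjusted p = 4.28e-05). Cdc6, which loads that helicase, changed by -0.87. For both genes each 6 h array was below each 3 h array. The sliding clamp gene PCNA (-0.61) and Mcm3 (-0.49) lost their calls without the first 3 h array (-0.41, adjusted p = 0.162, and -0.35, adjusted p = 0.136) or the third 6 h array (-0.51, adjusted p = 0.08, and -0.39, adjusted p = 0.0949), and with slide runs as a term (-0.62, adjusted p = 0.0537, and -0.44, adjusted p = 0.0905). Of 4 cell cycle genes aurB, a mitotic kinase, fell by 0.57 on the log2 scale, but by 0.44 without the first 3 h array (adjusted p = 0.129) and 0.56 without the third 6 h array (adjusted p = 0.0501). Of 4 cell death genes 1 fell and none rose. It was Corp (-0.49), which lost its call when single arrays were left out (highest adjusted p = 0.199). Corp also lost it with slide runs as a term (-0.54, adjusted p = 0.0658) and with the span trend removed (-0.40, adjusted p = 0.0822). Of all features 12% fell.

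Steroid synthesis and energy metabolism also held falling genes. Of 7 ecdysone genes 3 fell and none rose, and these 3 are cytochrome P450 genes of ecdysone synthesis. phtm was at 1.32, 1.86 and 0.82 at 3 h and at 0.065, 0.17 and -0.12 at 6 h (change -1.30, SE 0.22, limma adjusted p = 1.6e-05). dib changed by -0.80, and spo by -0.97 with a call that did not hold when single arrays were left out (highest adjusted p = 0.121). Of 8 genes of mitochondrial energy metabolism 3 fell, COX4 (-1.27), COX6B (-0.94) and COX5A (-0.58), all subunits of cytochrome c oxidase. COX5A was -0.49 without the third 3 h array (adjusted p = 0.075) or the third 6 h array (adjusted p = 0.0725). Of 7 glycolytic genes 1 passed, against 24.4% of all features. It was Pfk (-0.81, but adjusted p up to 0.119 when an array was left out, and -0.67 with slide runs as a term, adjusted p = 0.0727).

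**Figure D2:**
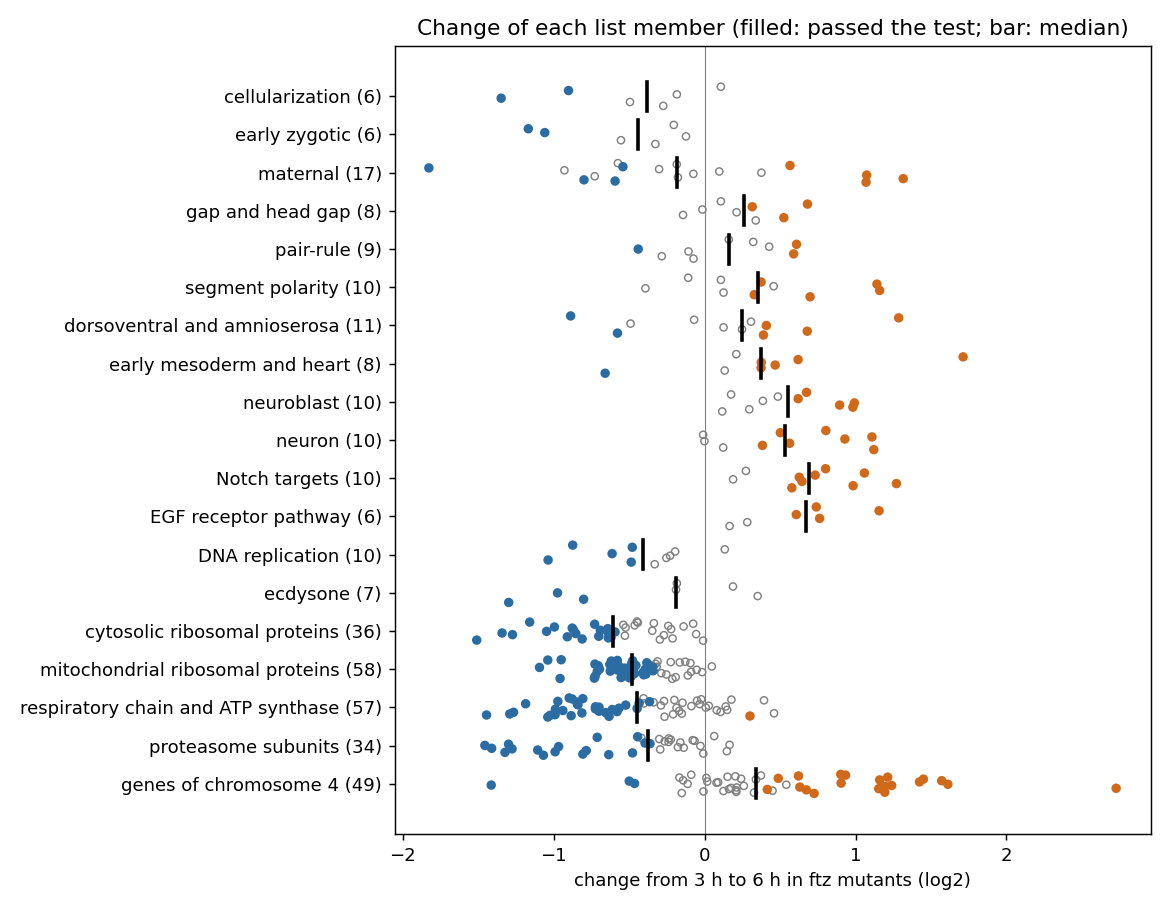
Change from 3 h to 6 h in ftz mutants (log2) of each measured member of 19 gene groups, with the number of members in brackets. Filled points passed the test (orange higher, blue lower), open points did not, and each black bar is the group's median, from 0.69 for the Notch genes to -0.61 for the cytosolic ribosomal proteins.

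Gene families named after housekeeping complexes were widely lower at 6 h. These families were chosen after their values were seen, so their counts are a description, to be read beside the 12% of features that fell. Members were taken by the start of the gene symbol, so related genes such as Prosalpha4T1, Rpt3R, COX4L and Sdhaf3 are counted among them. Of 36 cytosolic ribosomal protein genes 19 fell and none rose (median -0.61). Of 58 mitochondrial ribosomal protein genes 40 fell (median -0.48), of 57 genes of the respiratory chain and ATP synthase 31 fell and 1 rose (median -0.45), and of 34 proteasome subunits 17 fell (median -0.38). Of 27 glutathione transferase genes, the family of GstE1, 8 fell and 1 rose (median -0.22). RpL10Ab, of the large ribosomal subunit, was at 1.43, 1.27 and 1.40 at 3 h and at -0.18, -0.067 and -0.18 at 6 h (change -1.51, SE 0.27, limma adjusted p = 3.32e-05). The other large falls included RpL39 (-1.34), RpL32 (-1.27), mRpL51 (-1.09), Prosbeta7 (-1.46) and ATPsynF (-1.45).

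In wild type the medians of the first 4 of these families, in the same order, were -0.050, -0.18, -0.066 and -0.088, and in eve mutants -0.61, -0.57, -0.76 and -0.27. By the test of each gene, the ftz step was lower than the wild type step in few members. These were 4 of 36, 2 of 58, 9 of 57 and 6 of 34, beside 2.64% of all features. The median of the cytosolic ribosomal protein genes was 0.54 to 0.69 on the ftz 3 h arrays and 0.073 to 0.21 on the wild type 3 h arrays. At 6 h it was -0.0021 to 0.16 in ftz mutants and -0.04 to 0.16 in wild type, which overlap. For the mitochondrial ribosomal proteins the range was 0.40 to 0.44 in ftz mutants at 3 h against -0.045 to 0.041 in wild type, and -0.095 to 0.013 against -0.23 to -0.063 at 6 h. In eve mutants the 3 h values were 0.29 to 0.36 for the cytosolic and 0.33 to 0.34 for the mitochondrial family.

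Genes of chromosome 4, the small and largely heterochromatic chromosome, went the other way. Of 49 measured, 21 rose and 3 fell, with a median of 0.34 in ftz mutants, 0.26 in eve mutants and -0.076 in wild type. On the other arms the median lay between -0.038 and 0.0024. The chromosome 4 median was -0.44 to -0.30 on the ftz 3 h arrays, where wild type had -0.071 to -0.039, and -0.027 to 0.16 on the ftz 6 h arrays, where wild type had -0.24 to 0.032. Cals and ci belong to this chromosome, as do Taf3 of the TFIID complex (1.42), the translation initiation factor eIF4G1 (1.45) and the semaphorin receptor PlexB (1.61), which also rose.

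Long genes rose more often than short ones. Gene span is the length from start to end in the RefSeq annotation, introns included, and so is not the length of the transcript. Of 403 genes that span over 30 kilobases 28.0% rose and 3.47% fell, and of 1246 genes up to 1 kilobase 4.74% rose and 16.3% fell. The bins between them followed the same order for rises, at 5.36%, 15.2% and 23.4%. Across genes, the Spearman correlation of level with span was -0.35 to -0.30 on the 3 h arrays and -0.091 to -0.025 on the 6 h arrays. In wild type it was -0.14 to -0.12 at 3 h and -0.075 to 0.00086 at 6 h, and in eve mutants -0.32 to -0.31 and -0.028 to 0.027. Genes of one array share that array's normalization and are not independent, and no p is given. With a linear trend on span removed from each array, 2120 of 9288 genes passed, 1690 of which were also called without that step. Under it the medians of the neuroblast genes (0.49), Notch genes (0.78) and cytosolic ribosomal proteins (-0.49) kept their sign. The median of the dorsoventral and amnioserosa genes went to 0.0020.

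**Figure D3:**
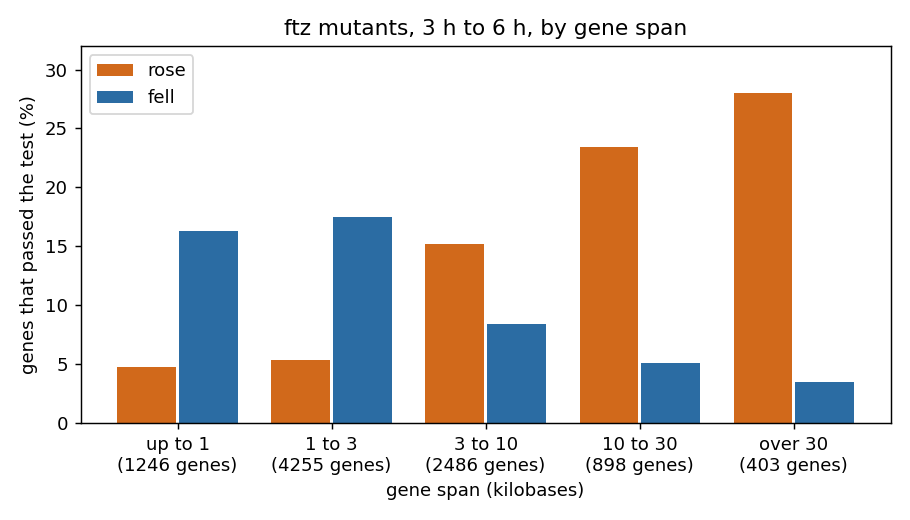
Percentage of genes that rose (orange) and fell (blue) between 3 h and 6 h in ftz mutants, in 5 bins of gene span in kilobases with the number of genes under each. Rises go from 4.74% in the shortest bin to 28.0% in the longest, and falls from 16.3% to 3.47%.

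The same step was set beside that of wild type, which shares no array with it. In wild type 900 features passed (7.24%), 460 of them higher (3.7% of features) and 440 lower (3.54%). Both steps called 184 features higher and 163 lower, which is 11.5% of the ftz calls and 38.6% of the wild type calls, and 21 features passed in opposite directions. The features that rose in ftz mutants had a median change of 0.58 there and of 0.14 in wild type, and those that fell had medians of -0.58 and -0.16. In 75.2% of the ftz calls the sign in wild type was the same. Since the ftz calls were picked by their own values, those medians favour ftz.

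Tested directly, the ftz step differed from the wild type step in 691 features (5.56%), 363 with the larger value in ftz mutants (2.92%) and 328 with the smaller (2.64%). The number was 312 with slide runs as a term, of which 222 were among the 691. It was 416 to 657 when single arrays were left out, and 414 when wild type 7 h took the place of 6 h. Cals had the largest positive difference, 2.66 (SE 0.43, limma adjusted p = 9.34e-05). In wild type its levels were -0.026, -0.14 and -0.30 at 3 h and 0.33, -0.37 and -0.23 at 6 h, which overlap. The ftz 3 h arrays, at -2.30 to -1.93, were below every wild type array of either age. The other large ones were CG43333 (2.36), Atf6 (1.99), CG3164 (1.86), CBP (1.82) and eIF4E3, whose 2.14 rests on 6 h arrays at the ceiling and so has no place in the order. CG43333 was 1.66 with slide runs as a term (adjusted p = 0.0574).

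On the negative side stood APC7, of the anaphase promoting complex (-1.98), the thiolase gene Acat1 (-1.70), RpL10Ab (-1.70), COX4 (-1.55), the imaginal disc growth factor Idgf2 (-1.53) and CG4390 (-1.53). Acat1 was at -0.21, -0.54 and -0.44 at 3 h and at -1.71, -1.50 and -1.78 at 6 h in ftz mutants, and its change was 0.44 in wild type and 0.43 in eve mutants, neither of which passed. With slide runs as a term Acat1 (-1.46, adjusted p = 0.0189) and COX4 (-1.43, adjusted p = 0.00999) still passed, and APC7 (-0.96), RpL10Ab (-1.24), Idgf2 (-1.40) and CG4390 (-1.09) did not. APC7 also lost its call without the first 3 h or the third 6 h array of ftz mutants or the first 3 h array of wild type (highest adjusted p = 0.0513), and CG4390 without the third ftz 6 h array (adjusted p = 0.0557).

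Among the members of the developmental lists, hry, kek1, ci and tld differed from wild type in that fit as well, as did tex, which is in none of the lists. ci differed by 1.68 (2.09 with slide runs) and tld by 0.79 (0.84), and ci lost its call under 8 of the 12 left-out arrays of ftz mutants and wild type (highest adjusted p = 0.118), as it did with the span trend removed (1.62, adjusted p = 0.0506). tld was 0.53 with wild type 7 h in place of 6 h (adjusted p = 0.125). hry fell in wild type from 0.058, 0.20 and -0.026 to -0.24, -0.17 and -0.26 and rose in ftz mutants, a difference of 0.89 (SE 0.17, limma adjusted p = 0.000464). Its row of highest variance also passed for this difference. kek1 differed by 0.84 (limma adjusted p = 0.000529), with a wild type change of -0.096, and tex by -1.49 (limma adjusted p = 1.23e-06), with a wild type change of -0.29.

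For lmd, insc, elav and Mcm5 the call against wild type depended on the age chosen for wild type and on the term for slide runs. lmd differed by 1.63 (SE 0.33, limma adjusted p = 0.00163). It was at -0.085, -0.15 and 0.10 at 6 h in wild type, where no array reached the 1.53 to 2.06 of ftz mutants, and its wild type mean was 0.64 at 7 h. insc differed by 0.79 (limma adjusted p = 0.0172), elav by 1.46 (adjusted p = 0.0237) and Mcm5 by -1.21 (adjusted p = 0.00335). With wild type 7 h in place of 6 h lmd was 0.94, insc 0.60, elav 1.19 and Mcm5 -0.85, and with slide runs as a term they were 1.20, 0.42, 0.86 and -0.94. None of these 8 values passed. Leaving out the third ftz 6 h array took insc to 0.65 (adjusted p = 0.0777) and elav to 1.24 (adjusted p = 0.0882), and elav was 0.83 without the third wild type 3 h array (adjusted p = 0.148) and 1.25 without the first wild type 6 h array (adjusted p = 0.0784).

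The step of eve mutants, which also shares no array, called 3257 features (26.2%), 1516 higher (12.2%) and 1741 lower (14%). With ftz it had 635 features higher and 758 lower in common, 46.0% of the ftz calls and 42.8% of the eve calls, and 66 were opposite. The features that rose in ftz mutants had a median of 0.30 in eve mutants, and those that fell one of -0.38. The difference between the steps passed in 811 features (6.53%), 400 higher in ftz mutants (3.22%) and 411 lower (3.31%), but in 56 with slide runs as a term, of which 25 were among the 811.

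The segment polarity gene en was among the features whose ftz and eve steps differed. In eve mutants it stayed between -0.014 and 0.10 on the 3 h and 6 h arrays, while in ftz mutants it rose, a difference of 0.69 (SE 0.20, limma adjusted p = 0.0245). Without the second ftz 3 h, second ftz 6 h or second eve 3 h array the call was lost (highest adjusted p = 0.0779), as it was with slide runs as a term (0.83, adjusted p = 0.339). Ance differed by 1.43 (adjusted p = 0.000766), bcd by 1.44 (adjusted p = 0.0149), kek1 by 1.11 (adjusted p = 1.49e-05) and halo by 1.33 (adjusted p = 0.00773), by limma. halo fell in both mutants, by 0.90 in ftz and 2.23 in eve on the log2 scale. With slide runs as a term they were 1.03 for Ance, 1.32 for bcd, 0.66 for kek1 and 0.97 for halo and did not pass (adjusted p of 0.23, 0.411, 0.38 and 0.348), and bcd also lost its call without the first ftz 3 h or the second eve 6 h array (highest adjusted p = 0.0578) and with eve 7 h in place of 6 h. hry differed from eve mutants by 0.93 and passed with that term too (1.54, adjusted p = 0.0139), though not with each row on its own (0.51, adjusted p = 0.0908) or with eve 7 h in place of 6 h (0.40, adjusted p = 0.122).

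**Figure D4:**
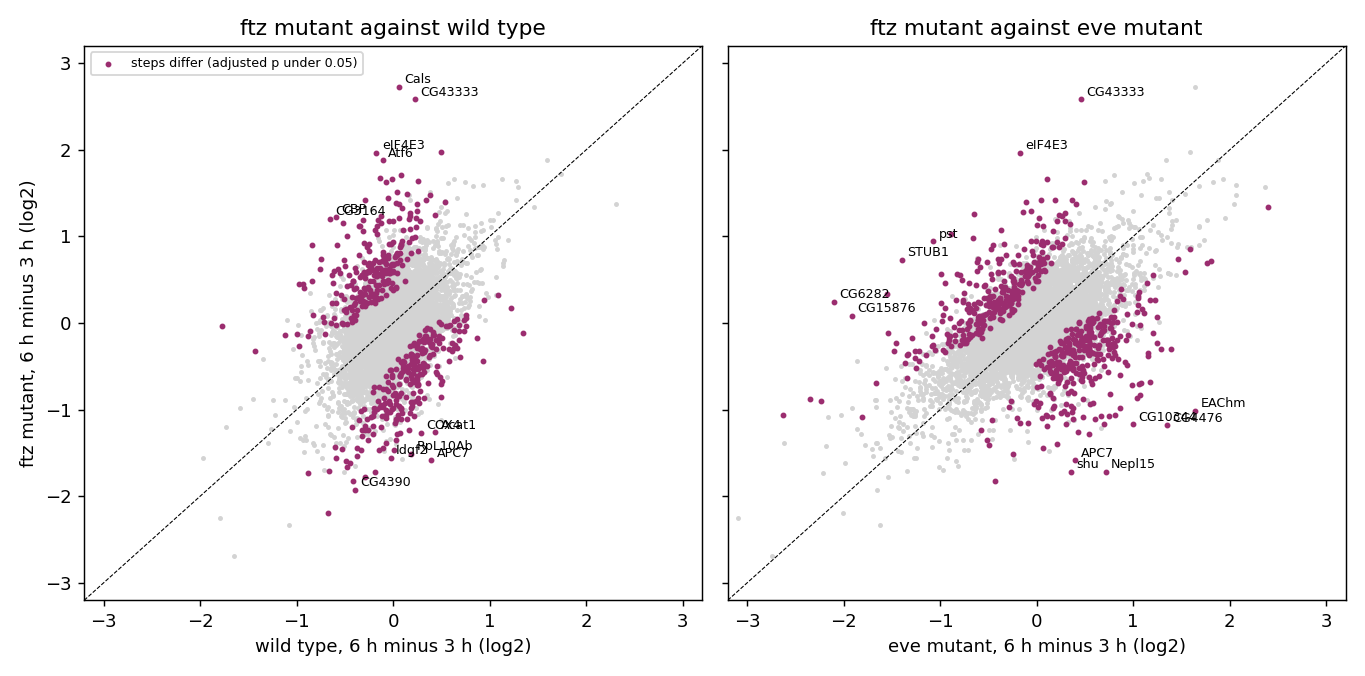
Change from 3 h to 6 h in ftz mutants (log2, vertical axes) against the same change in wild type (left) and in eve mutants (right), 1 point per named gene, with the line of equal change dashed. Purple points are the named genes whose steps differed, 484 on the left and 636 on the right. Features without a gene name are not drawn. The labelled genes are the 6 largest differences each way.

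The ages around the interval place these changes in the time course. In ftz mutants Cals fell to -2.11 ± 0.19 (SD, n = 3) at 3 h from -1.07 ± 0.41 at 2 h, rose to 0.61 ± 0.19 at 6 h, and lay between 0.89 and 0.92 from 7 h to 10 h. Its wild type mean was -0.15 ± 0.14 at 3 h, -0.091 ± 0.37 at 6 h and 0.87 ± 0.27 at 10 h, where the genotypes overlapped. bcd likewise had its lowest ftz mean at 3 h (-1.45 ± 0.21), against -0.30 ± 0.22 at 2 h and -0.38 ± 0.11 at 6 h, and in wild type the means lay between -0.35 and 0.14 at all 7 ages. In ftz mutants 3 h was thus the age with the lowest mean of both genes.

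lmd reached 1.71 ± 0.30 at 6 h and 1.96 ± 0.58 at 7 h in ftz mutants, and its mean was 1.11 ± 0.028 at 10 h, where wild type had 1.14 ± 0.067. insc held means of 0.75 to 0.97 from 6 h to 8 h in ftz mutants and of 0.11 to 0.35 in wild type. tex was higher in ftz mutants at 3 h (1.94 ± 0.32 against 0.94 ± 0.24) and lower at 6 h (0.16 ± 0.15 against 0.65 ± 0.086), and from 7 h to 10 h its means lay between -0.27 and 0.042 in ftz mutants and between -0.21 and 0.11 in wild type. Mcm5 had a ftz mean of 1.19 ± 0.25 at 3 h and 0.16 ± 0.36 at 6 h and went on to -1.005 ± 0.067 at 10 h, while wild type stood at 0.87 ± 0.081, 1.04 ± 0.052 and -0.20 ± 0.36. eIF4E3 stayed between 1.68 and 2.78 from 6 h to 10 h in ftz mutants and between 0.077 and 0.29 in wild type.

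**Figure D5:**
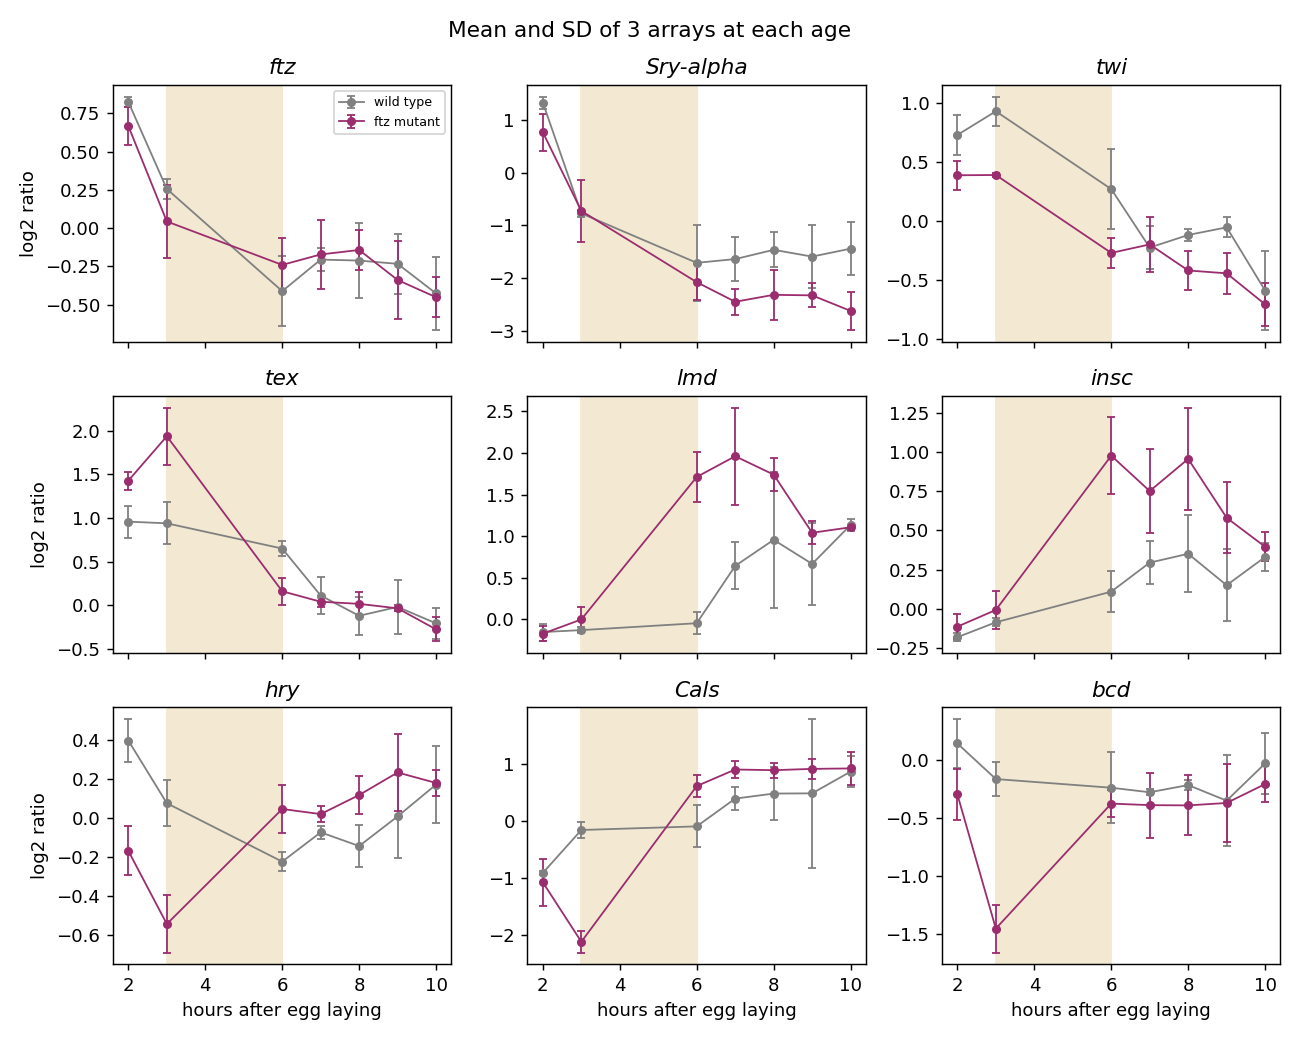
Mean log2 ratio of 9 genes in ftz mutants (purple) and wild type (grey) at 2, 3, 6, 7, 8, 9 and 10 h after egg laying, with bars of 1 SD over 3 arrays and the interval from 3 h to 6 h shaded. Cals, bcd and hry have their lowest ftz mean at 3 h, and lmd and insc are above wild type at 6 h.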

How the data were processed

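The authors deposited 1 table of log ratios, used here as log2, with the sample in Cy3 and the reference in Cy5 per the labels. Neither the base nor the direction of the ratio is stated. Sample over reference is the likely direction, since in wild type the cellularization markers fell and the germ band markers rose with age. The submitters' processing notes name limma. How background was corrected and spots filtered is not given in the sources used here. Sorted values agreed between arrays within 0.000784, so the deposited values had been quantile normalized.

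Of 20000 deposited rows 6772 were blank. Rows of 1 gene symbol were averaged per array, giving 12424 features, 9291 of them named through the platform annotation and RefSeq. All 63 arrays entered 1 model in limma 3.58.1 (R 4.3.3) with 21 group means and 42 residual degrees of freedom, empirical Bayes moderation, and Benjamini-Hochberg adjustment over all features. Contrasts were the ftz step from 3 h to 6 h and its difference from the wild type and eve steps. Depth does not apply to arrays, and 3 arrays a group limit the precision. The model was tested on simulated data.

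Named genes were the 12 largest rises and falls whose ages did not overlap, up to 4 called members of each list each way, all measured gap, pair-rule and segment polarity genes, and the 6 largest step differences each way. RpL39, RpL32, mRpL51, Prosbeta7, ATPsynF, Taf3, eIF4G1, PlexB, bnl and COX5A were named after their values were seen, as members of their groups. The members and the 29 lists were chosen with earlier results of these data known. Alternatives covered the arrays fitted, weights, rows, filters, slide runs and gene span, the last added after seeing the data.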

Additional observations from a re-analysis of the deposited data

Results flagged for a closer look

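The change from 3 h to 6 h differed between genotypes, by limma's test of the difference itself, in 691 features against wild type and in 811 against eve mutants. The ftz arrays entered both differences, so the 2 sets of values are not independent. A value in brackets is the ftz step minus the other genotype's step on the log2 scale, for named genes past an adjusted p of 0.05.

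Against wild type the 20 genes with the larger value in ftz mutants were Cals (2.66), CG43333 (2.36), eIF4E3 (2.14), Atf6 (1.99), CG3164 (1.86), CBP (1.82), pAbp (1.82), ci (1.68), CG18088 (1.67), lmd (1.63), aqz (1.49), Mlc2 (1.48), elav (1.46), hry (0.89), kek1 (0.84), tld (0.79), insc (0.79), sli (0.73), srp (0.67) and aos (0.64). The 15 with the smaller value were APC7 (-1.98), Acat1 (-1.70), RpL10Ab (-1.70), COX4 (-1.55), Idgf2 (-1.53), CG4390 (-1.53), shu (-1.53), GstE1 (-1.51), tex (-1.49), spn-E (-1.41), Mcm5 (-1.21), nSMase (-1.04), aurB (-1.01), CG10038 (-0.84) and ind (-0.78). With wild type 7 h in place of 6 h, 15 of the calls against wild type were lost. Under the 12 left-out arrays of ftz mutants and wild type they were lost most often for nSMase (11), shu (9), srp (9) and ci (8). With slide runs as a term 16 calls against wild type were kept. They were those of Acat1, Atf6, CBP, CG18088, CG3164, COX4, Cals, GstE1, aqz, ci, eIF4E3, hry, kek1, pAbp, tex and tld.

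Against eve mutants the 23 genes with the larger value in ftz mutants were CG6282 (2.35), eIF4E3 (2.13), STUB1 (2.13), CG43333 (2.12), pst (2.01), CG15876 (2.00), term (1.57), PRL-1 (1.56), bcd (1.44), Ance (1.43), halo (1.33), gsb (1.16), kek1 (1.11), eve (0.97), hry (0.93), gsb-n (0.80), nau (0.70), en (0.69), insc (0.69), bap (0.63), aos (0.61), htl (0.58) and eya (0.57). The 12 with the smaller value were EAChm (-2.66), CG4476 (-2.52), Nepl15 (-2.43), CG10344 (-2.16), shu (-2.07), APC7 (-1.99), Acat1 (-1.69), spn-E (-1.39), Mcm5 (-1.29), RpL10Ab (-1.27), png (-1.03) and aurB (-0.85). With slide runs as a term hry alone of the 35 genes listed against eve mutants kept its call, and 16 of the 35 listed against wild type did. That term ties the eve 3 h arrays to the rest through wild type 10 h replicate 2 alone, and gsb was 2.00 there without passing (limma adjusted p = 0.113). With eve 7 h in place of 6 h, 10 of the calls against eve mutants were lost. Under the 12 left-out arrays of ftz and eve mutants they were lost most often for eya (10), gsb-n (10), and aurB, nau, RpL10Ab and term (9 each). The values of eIF4E3 rest on 6 h arrays at the ceiling.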

How the results depend on the processing

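Of the 3028 features called between 3 h and 6 h, leaving out 1 array gave 2159 to 2747, array weights gave 5220 and a test for changes over 1.5-fold gave 126. The difference from wild type, in 691 features, gave 1186 with the 18 arrays of 3 h and 6 h alone, 1716 with array weights, 312 with slide runs as a term and 11 over 1.5-fold. It gave 414 with wild type 7 h in place of 6 h. With the trend on gene span removed it gave 456 of 9288 genes, beside 484 named genes called in the main fit. With 1 array left out it gave 416 to 657. The difference from eve mutants, in 811, gave 1331, 2910, 56 and 4 under the first 4 of these, and 332 to 995 with 1 array left out. The lowest counts of both differences were without the first ftz 3 h array, and that of the step without the third. With slide runs as a term 4 differences from eve mutants changed sign, APC7 (0.27), CG6282 (-0.17), eve (-0.18) and Nepl15 (0.031). The cause was not tested.

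Of 113 named genes called in the ftz step 66 kept their call under the alternatives other than the 1.5-fold test, 37 lost it without some array, 29 with slide runs and 14 with the span trend removed. No paired analysis was possible because the labels give the 3 h and 6 h arrays no shared replicate numbers. Repeating the quantile normalization could not change a call, because the deposited values had already been quantile normalized. How far the results depend on normalization was thus not tested. The Hox list had no member left once features near 0 were left out. Values at the floor or ceiling, as for Mlc2 and eIF4E3, have no order, and slide numbers that recur can place unlike batches in 1 run.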
